A study of Mus musculus with 9 samples.

Results

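Complex I genes were followed through the conversion of mouse fat-cell precursors into beige adipocytes by counting ribosome footprints, the stretches of mRNA that ribosomes shield from nuclease. The genes were taken by name: every gene whose symbol begins with Nduf, except those whose symbol ends in -ps, the mark of a pseudogene. The table of 55359 genes held 51 of them. They divide by symbol into 12 Ndufs and Ndufv genes, 31 accessory genes (Ndufa, Ndufb, Ndufc and Ndufab1) and 8 assembly factors (Ndufaf1 to Ndufaf8), and 47 passed the filter on low counts. The 4 that did not were Ndufs6b with 10 counts over all libraries, Ndufa11b with 15, and Ndufb4c and Ndufb11b with 0. RefSeq lists Ndufs6b as a pseudogene and Ndufa11b as a transcribed pseudogene.

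The cells were preadipocytes isolated from inguinal white adipose tissue, a subcutaneous depot, and 3 groups of 3 libraries were compared. Day 0 cells received no induction. Day 4 and day 8 cells were given a cocktail of dexamethasone, 3-isobutyl-1-methylxanthine, indomethacin, insulin, triiodothyronine and rosiglitazone, and after 2 days were kept in medium that lacked the former 3 of these agents. Lysates contained cycloheximide, which holds cytosolic ribosomes in place, and were digested with RNase I. The strain and age of the mice, and whether the replicates were separate animals or cultures, are not stated in the labels used here. The p-values therefore reflect variation among these 9 libraries, which may be technical.

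Complex I, NADH:ubiquinone oxidoreductase, is the entry point of electrons from NADH into the respiratory chain of the inner mitochondrial membrane. Its peripheral arm holds the N module, which oxidises NADH, and the Q module, which reduces ubiquinone, and its membrane arm has a proximal and a distal part that pump protons. A conserved catalytic core is encoded partly by nuclear Ndufs and Ndufv genes and partly by mitochondrial DNA. Accessory subunits surround that core, and assembly factors help to build the complex without staying in it. Brown and beige adipocytes are rich in mitochondria, and complex I feeds the proton gradient that uncoupling protein 1 dissipates as heat.

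The stretches before the transcription start are shown here for 6 members whose values are given below: Ndufs5, Ndufa5, Ndufa12 and Ndufaf5, the members with the smallest p-values between day 4 and day 8; Ndufaf4, the Ndufaf gene with the largest rise by day 8; and Ndufv1, the Ndufs or Ndufv gene with the largest rise by day 8. Each is the 150 bases before a RefSeq start site (build GRCm38.p6), written 5′ to 3′ on the gene's strand, and capitals mark a match to CGCANGCG, the core letters of the motif of the transcription factor NRF1, on either strand. The positions are chr4:123718187-123718336 on the minus strand for Ndufs5, chr6:24527691-24527840 on the minus strand for Ndufa5, chr10:94198885-94199034 on the plus strand for Ndufa12, chr2:140170496-140170645 on the plus strand for Ndufaf5, chr4:24897933-24898082 on the plus strand for Ndufaf4 and chr19:4012756-4012905 on the minus strand for Ndufv1.
Ndufs5: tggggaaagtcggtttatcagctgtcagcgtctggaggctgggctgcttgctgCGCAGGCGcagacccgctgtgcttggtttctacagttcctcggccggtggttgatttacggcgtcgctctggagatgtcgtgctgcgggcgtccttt
Ndufa5: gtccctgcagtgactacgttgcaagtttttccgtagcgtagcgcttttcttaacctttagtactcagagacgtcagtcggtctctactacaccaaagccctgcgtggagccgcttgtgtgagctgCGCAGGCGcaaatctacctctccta
Ndufa12: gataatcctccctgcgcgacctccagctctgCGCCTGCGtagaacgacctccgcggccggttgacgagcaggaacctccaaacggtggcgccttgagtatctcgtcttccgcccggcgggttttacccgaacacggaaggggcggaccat
Ndufaf5: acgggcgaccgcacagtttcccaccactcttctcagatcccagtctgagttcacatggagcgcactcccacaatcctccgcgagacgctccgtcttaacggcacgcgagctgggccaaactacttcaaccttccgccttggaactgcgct
Ndufaf4: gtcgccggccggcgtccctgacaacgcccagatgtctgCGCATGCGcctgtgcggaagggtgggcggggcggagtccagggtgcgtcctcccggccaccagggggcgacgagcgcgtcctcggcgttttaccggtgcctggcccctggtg
Ndufv1: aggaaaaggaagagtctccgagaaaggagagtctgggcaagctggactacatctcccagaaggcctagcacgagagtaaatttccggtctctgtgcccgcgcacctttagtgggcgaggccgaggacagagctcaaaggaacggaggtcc
The match began 97 bases before the start site in Ndufs5, 25 in Ndufa5, 119 in Ndufa12 and 112 in Ndufaf4. In Ndufaf5 the match lies past the start site, outside the bases shown. Ndufv1 had no match in its window. These 6 were picked for their values, and 5 of them hold the letters, a larger share than among all members (below).

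Over windows of 300 bases (250 before and 50 after a start site), 41 of the 47 tested members had a RefSeq entry. The NRF1 letters CGCANGCG were found on either strand in 13 of these 41 members (31.7%), against 18.9% of the 10806 tested genes with a window and 8.21% of all 32851 windows. AAGATGGCG, the motif of YY1, was found in 6 members (14.6%), against 3.4% of the tested genes and 1.4% of all windows. CCGGAAGT, bound by ETS factors such as GABP, was in 1 member (2.44%), against 8.75% of the tested genes and 3.89% of all windows. TNAAGGTCA, the extended half-site of the estrogen-related receptors, was in 1 member, against 0.935% of the tested genes and 1.28% of all windows. Matches to different motifs did not overlap in any member. A match is a description of the letters and not a binding site. The median log2 fold change from day 0 to day 8 was 2.21 over the 13 members with the NRF1 letters and 2.41 over the 28 without, and it was 2.30 over the 6 members with the YY1 letters and 2.35 over the 35 without.

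Library totals ran from 30823028 to 38994892 counts, and 14714 genes were tested. Levels of genes are given in CPM, counts scaled to a common library size with TMM. Sums over cell type markers, here and below, are CPM scaled to library totals without TMM. Levels are not set against each other between genes, since no gene lengths were used. Summed over the markers fixed for adipocytes (Adipoq, Fabp4, Plin1, Pparg, Cebpa and Cidec), libraries held 246 to 323 CPM at day 0, 30900 to 45900 at day 4 and 49500 to 53000 at day 8. Fabp4 made up most of these sums. From day 4 to day 8, 0 of the 6 adipocyte markers were higher and 2 lower, where 14.7% of all tested genes were higher and 17.1% lower. Their median log2 difference was -0.20. The 5 beige markers, Ucp1 among them, held 3.15 to 3.93, 163 to 269 and 821 to 1430 CPM, and the 6 precursor markers 2540 to 2570, 749 to 1730 and 540 to 739 CPM. Pdgfrb and Pdgfra made up most of the precursor sum, and the precursor markers did not move together. Against day 0, 3 were higher and 2 lower at day 4, where 29.8% of all tested genes were higher and 28.4% lower. At day 8, 0 were higher and 2 lower, where 34.2% of all tested genes were higher and 33.5% lower. For other cell types, libraries of day 0, day 4 and day 8 held 53.3 to 101, 51.2 to 68.1 and 18.3 to 50.2 CPM over 7 macrophage markers, and 20.3 to 27.8, 5.46 to 19.0 and 3.54 to 7.97 over 5 endothelial markers. The 6 skeletal muscle markers held 45.3 to 59.3, 1.67 to 5.49 and 8.66 to 11.2 CPM (Ckm was at 0 at day 0), the 4 mural markers 21.5 to 22.7, 32.5 to 36.4 and 42.4 to 85.4, and the 3 mesothelial markers 28.4 to 50, 35 to 82.5 and 31.5 to 33.8. The mural and skeletal muscle markers did not move together either. At day 8 against day 0, 1 of 4 mural markers was higher and 1 lower, beside the shares of all tested genes given above. Their log2 fold changes ran from -2.40 for Kcnj8 to 2.00 for Cspg4 (median -1.05). Of the 2 skeletal muscle markers tested, Acta1 was lower (-2.82) and Mb higher (6.74). In bulk lysates, more cells of a type and more footprints per cell cannot be told apart, and the part of these shifts in the results on complex I was not tested.

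A library in each induced group stood apart in its Nduf footprints. Day 4 replicate 2 had the lowest value of its group for 44 of the 47 tested members. Its ratio to the mean of the other day 4 libraries had a median of 0.671 over the members and ran from 0.208 for Ndufa4l2 to 1.11 for Ndufb2, while the median over all tested genes was 0.98. That library held 1730 CPM of precursor markers against 749 and 831 in replicates 1 and 3, 30900 CPM of adipocyte markers against 45500 and 45900, and 19.0 CPM of endothelial markers against 5.71 and 5.46. Day 8 replicate 3 was the lowest of its group for 44 members, with a median ratio of 0.781 (0.584 for Ndufb2 to 1.05 for Ndufaf7) against 1.01 over all genes. Its precursor markers summed to 739 CPM against 540 and 559, and its beige markers to 821 CPM against 1420 and 1430. Its adipocyte markers were closer to the others, at 49500 CPM against 53000 and 51800. Its endothelial markers summed to 7.97 CPM against 5.03 and 3.54. The counts over all members, and the values of some, are also given below without these libraries. Both were picked by their low Nduf values, so fits without them are not an independent test of the Nduf genes.

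Between day 0 and day 4 the footprints of nearly the whole gene family rose. Of the 47 tested members, 45 were higher at day 4 at a Benjamini-Hochberg adjusted p under 0.05 over all genes (edgeR's quasi-likelihood test), where 29.8% of all tested genes were higher and 28.4% lower. No member had a fitted value below 0. The median log2 fold change over the members was 1.66, a fold of 3.15, against -0.02 over all tested genes. Without day 4 replicate 2 and day 8 replicate 3, which were picked by their low Nduf values, 47 of 47 members were higher. Together the members took 0.278% to 0.293% of the scaled counts in the day 0 libraries and 0.787% to 1.22% in the day 4 libraries.

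All 11 tested Ndufs and Ndufv genes rose by day 4, with a median log2 fold change of 2.26, and the smallest in this class was 1.36. Of 28 accessory genes 27 rose (median 1.65). The exception was Ndufa4l2. Without it and Ndufa4, whose Nduf names are historical (below), 26 of 26 rose (median 1.69). Of 8 Ndufaf genes 7 rose (median 1.33). The class named by Ndufs and Ndufv holds 7 conserved catalytic subunits, whose median was 2.42. Ndufs4, Ndufs5, Ndufs6 and Ndufv3, although named with them, are accessory in structure. With those 4 counted as accessory, the accessory median stayed at 1.65. Members of a class share libraries and are not replicates, so differences between classes were not tested. The summed level of the Ndufs and Ndufv genes was 803.9 ± 11.1 CPM at day 0, 3800 ± 935 at day 4 and 5114 ± 669 at day 8 (SD, n = 3). The accessory genes summed to 1948 ± 68.6, 6594 ± 1460 and 9734 ± 1340 CPM, and the Ndufaf genes to 108.8 ± 2.65, 283.3 ± 49.3 and 358.7 ± 30.0 CPM. In each class every day 4 and day 8 library lay above every day 0 library. The lowest day 8 and the highest day 4 library nearly met in the Ndufs and Ndufv class (4342 and 4340 CPM). In the Ndufaf class they met (324.4 and 324.7 CPM). In the accessory class they were apart, at 8183 and 7520 CPM.

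**Figure D1:**
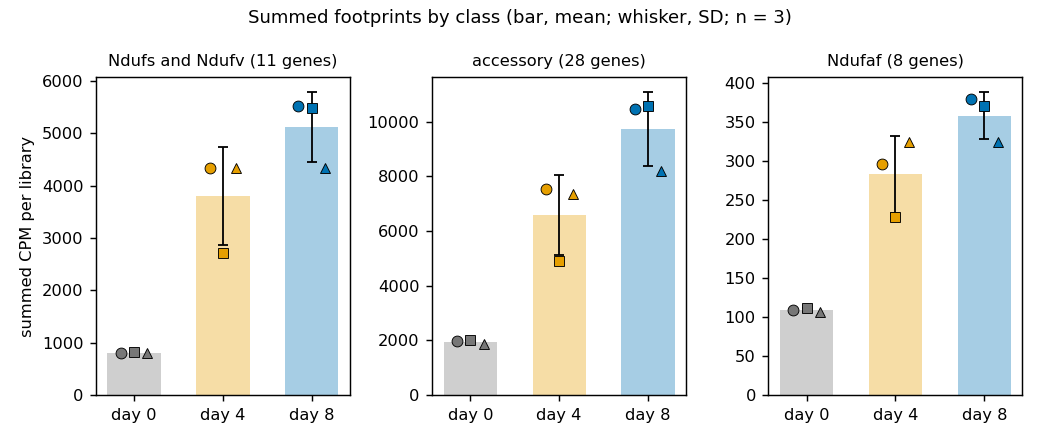
Summed CPM of the Ndufs and Ndufv genes, the accessory genes and the Ndufaf genes in each library at day 0, day 4 and day 8; bars are means, whiskers SD (n = 3), and circles, squares and triangles are replicates 1, 2 and 3. The square at day 4 and the triangle at day 8 lie below the other libraries of their day in all 3 panels.

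At day 8 all 47 tested members were higher than at day 0, where 34.2% of all tested genes were higher and 33.5% lower. Their median log2 fold change was 2.36, a fold of 5.14, against -0.01 over all tested genes, and the same 47 passed without the libraries that stood apart. Medians were 2.54 for the Ndufs and Ndufv genes, 2.41 for the accessory genes and 2.05 for the Ndufaf genes. Members ran from 0.76 for Ndufaf8 to 3.28 for Ndufb8. The day 4 and day 8 comparisons share the day 0 libraries. The fitted rise reached by day 4 was 77.4% of the day 8 rise at the median member on the log2 scale, from 29.5% for Ndufaf8 to 132% for Ndufb7.

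**Figure D2:**
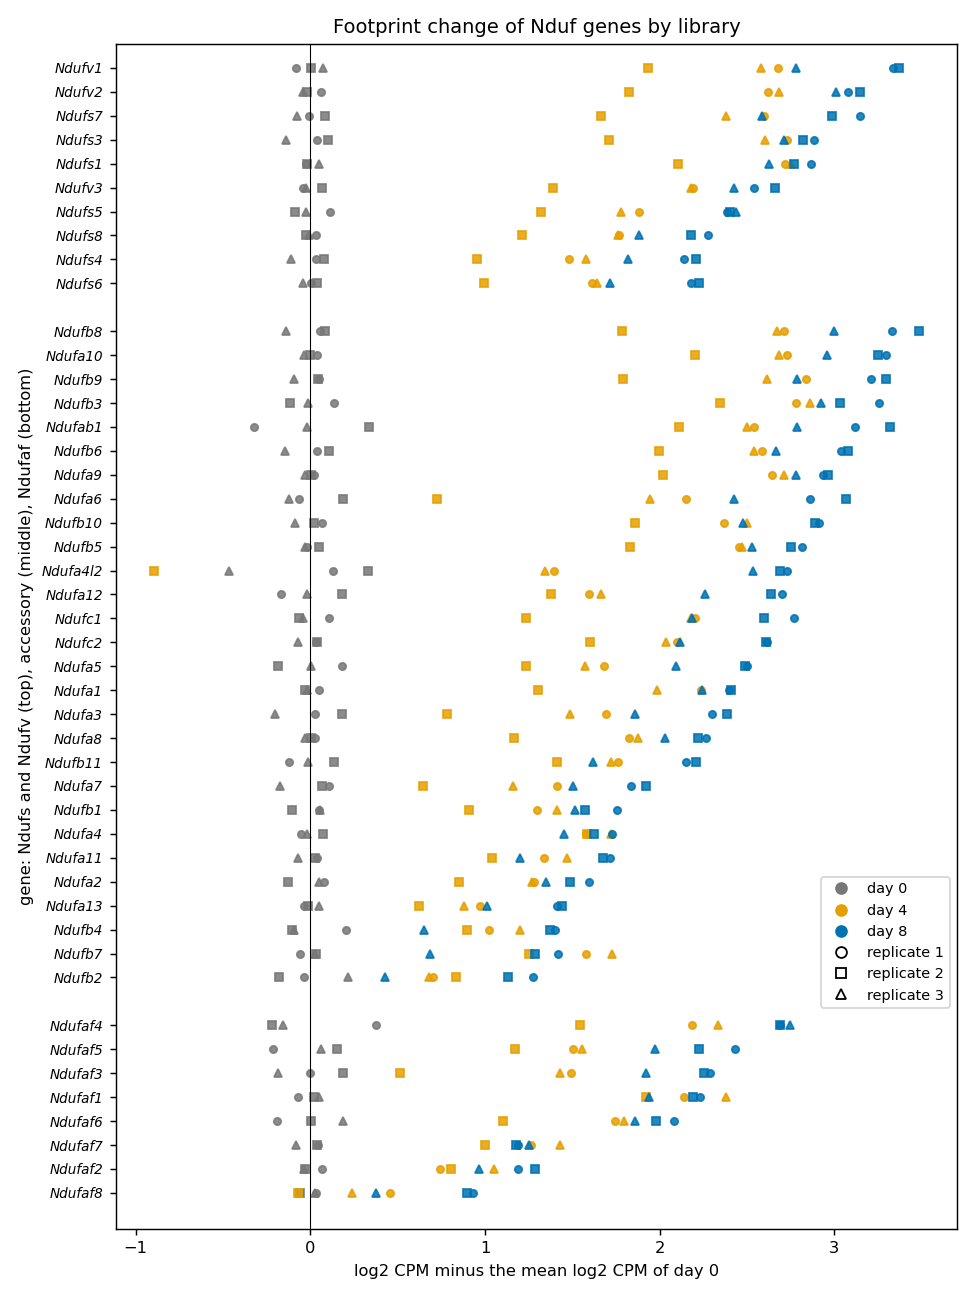
Log2 CPM of the Nduf genes plotted in each library, relative to its own mean log2 CPM at day 0, with Ndufs and Ndufv genes at the top, accessory genes in the middle and Ndufaf genes at the bottom; colour gives the day and the symbol the replicate. Day 8 points lie to the right of the day 0 points for all genes plotted, and the day 4 squares of Ndufa4l2 and Ndufaf8 reach the day 0 points.

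Among the catalytic subunits, Ndufv1 and Ndufv2 had the largest rises by day 8. Ndufv1 carries the flavin that accepts electrons from NADH. Its level was 102, 109 and 114 CPM at day 0, 692, 413 and 647 at day 4, and 1090, 1116 and 743 at day 8. The groups did not overlap, and the log2 fold change was 2.43 ± 0.22 (SE) by day 4 and 3.18 ± 0.23 by day 8, with adjusted p of 1.4e-05 and 2.7e-06 in edgeR. Ndufv2, its iron-sulfur partner in the N module, went from 58.8, 55.6 and 54.7 CPM at day 0 to 346, 199 and 362 at day 4 and 475, 499 and 454 at day 8. Its log2 fold change by day 8 was 3.08 ± 0.21. Ndufv2's span overlaps Ankrd12 in RefSeq, and the strand setting of the counting was not given in the sources used here, so reads of overlapping genes could not be told apart. Groups of libraries that do not overlap, named here and below, were common among the 14714 tested genes. Every day 4 library lay above every day 0 library for 4715 genes and below for 4833. For day 8 against day 0 these counts were 5568 and 5614, and for day 8 against day 4 they were 3272 and 3383.

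Ndufs1, the large iron-sulfur subunit of the N module, had a log2 fold change of 2.55 ± 0.18 by day 4 and 2.75 ± 0.18 by day 8. It measured 112, 112 and 118 CPM at day 0, 747, 489.7 and 767 at day 4, and 828, 775 and 701 at day 8. The induced groups overlapped each other, and the difference between them, 0.20 ± 0.17, did not pass (adjusted p = 0.389, edgeR). The gene was chosen after its values were seen.

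The smallest rises in the Ndufs and Ndufv class were those of Ndufs4 and Ndufs6, accessory subunits of the N module. Ndufs4 measured 79.3, 82.1 and 71.8 CPM at day 0, 216, 151 and 232 at day 4, and 342, 359 and 274 at day 8. Its groups did not overlap, and its log2 fold change was 1.36 ± 0.17 by day 4 and 2.06 ± 0.18 by day 8. Ndufs6 went from 29.4, 30.2 and 28.5 CPM to 89.9, 58.4 and 91.4 and then to 133, 137 and 96.5, a log2 fold change of 2.06 ± 0.19 by day 8. Ndufs5, a small subunit of the proximal membrane arm, measured 5.09, 4.43 and 4.64 CPM at day 0, 17.3, 11.8 and 16.2 at day 4, and 24.6, 24.9 and 25.5 at day 8. Here the day 8 libraries lay within 1 CPM of each other and day 8 replicate 3 was the highest of them.

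Among the accessory subunits, Ndufb8, of the distal membrane arm, and Ndufa10, of the proximal arm, rose most by day 8. Ndufb8 measured 46.9, 47.9 and 41.0 CPM at day 0, 296, 156 and 287 at day 4, and 454, 506 and 361 at day 8, and its log2 fold change by day 8 was 3.28 ± 0.25. Ndufa10 measured 82.3, 80.1 and 78.0 CPM at day 0, 531, 369 and 514 at day 4, and 786, 762 and 623 at day 8, with 3.17 ± 0.17. Neither gene had overlapping groups. The largest rise by day 4 was that of Ndufb3, another distal subunit, with a log2 fold change of 2.67 ± 0.16; it was chosen after its values were seen.

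The smallest accessory rises lay in the distal arm as well. Ndufb2 measured 31.2, 28.2 and 37.2 CPM at day 0, 52.0, 57.1 and 51.2 at day 4, and 77.4, 70.0 and 43.0 at day 8. Day 8 replicate 3 fell below all day 4 libraries, and the log2 fold change by day 8 was 0.98 ± 0.20. Ndufb7, a subunit with paired cysteines on the intermembrane side, measured 58.2, 61.9 and 61.5 CPM at day 0, 181, 144 and 201 at day 4, and 162, 148 and 97.5 at day 8. Its fitted value was highest at day 4 (1.53 ± 0.19 by day 4 and 1.16 ± 0.19 by day 8), but the late difference of -0.37 ± 0.19 did not pass (adjusted p = 0.153, edgeR). Without the libraries that stood apart it was -0.30 with an adjusted p of 0.0265.

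**Figure D3:**
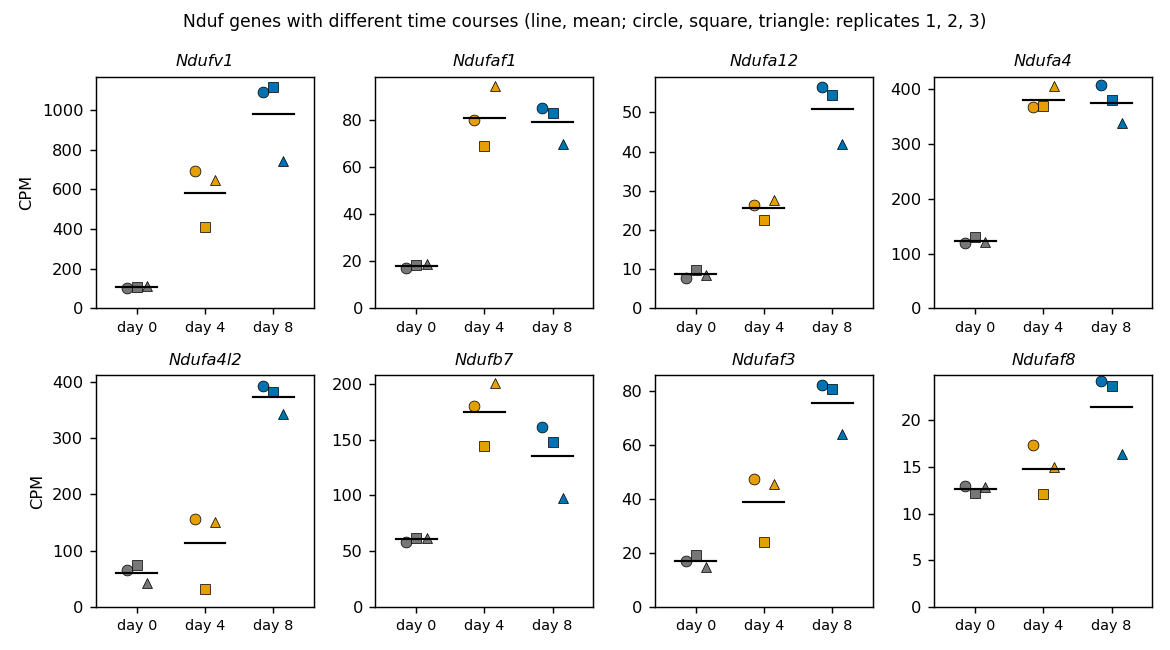
CPM of 8 Nduf genes in each library at day 0, day 4 and day 8; circles, squares and triangles are replicates 1, 2 and 3, lines are means, and each panel has its own axis from 0. Ndufa4 and Ndufaf1 show induced groups at overlapping levels, Ndufb7 has its highest mean at day 4, and Ndufa4l2 has a day 4 library below the day 0 libraries.

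A pair of genes carry the Nduf name for historical reasons. Ndufa4 is now assigned to complex IV, cytochrome c oxidase. It measured 119, 129 and 121 CPM at day 0, 368, 369 and 406 at day 4, and 407, 380.3 and 338 at day 8. Day 4 replicate 2 did not stand apart for this gene, and the late log2 difference was -0.02 ± 0.11 (adjusted p = 0.896, edgeR). Ndufa4l2, its paralog and a known target of hypoxia signalling, measured 64.9, 74.6 and 43.0 CPM at day 0, 156, 31.8 and 150.4 at day 4, and 393, 382 and 343 at day 8. Day 4 replicate 2 lay below every day 0 library, and the day 4 difference of 0.89 ± 0.47 did not pass (adjusted p = 0.127, edgeR). Without the libraries that stood apart it was 1.34 (adjusted p = 2.42e-05, edgeR). The day 8 rise was 2.62 ± 0.49 (adjusted p = 0.000938), and from day 4 to day 8 the gene rose by 1.73 ± 0.47 (adjusted p = 0.0216). Ndufa4l2 overlaps Shmt2 in RefSeq. Without the libraries that stood apart the late rise was 1.34 (adjusted p = 0.000255, edgeR).

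The 8 Ndufaf genes differed from each other more than their median shows. Ndufaf4, which works with Ndufaf3 on the Q module, had 5.94, 3.93 and 4.11 CPM at day 0, 20.8, 13.4 and 23.1 at day 4, and 29.5, 29.5 and 30.7 at day 8, a log2 fold change of 2.68 ± 0.22 by day 8. Ndufaf3 had 16.9, 19.3 and 14.9 CPM, then 47.5, 24.1 and 45.6, then 82.5, 80.7 and 64.1, with 2.16 ± 0.24 by day 8. Ndufaf5, an enzyme that hydroxylates an arginine of Ndufs7, had 5.27, 6.81 and 6.38 CPM, then 17.3, 13.8 and 18.0, then 33.0, 28.6 and 24.1, with 2.21 ± 0.17. None of these 3 had overlapping groups.

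Ndufaf8, the stabilising partner of Ndufaf5, moved least of all members. It had 13.0, 12.2 and 12.9 CPM at day 0, 17.4, 12.1 and 15.0 at day 4, and 24.2, 23.6 and 16.4 at day 8. Its day 4 libraries reached down to the day 0 range, and the day 4 difference of 0.22 ± 0.18 did not pass (adjusted p = 0.298, edgeR). Without the libraries that stood apart it was 0.36 (adjusted p = 0.0149, edgeR). By day 8 the gene had risen by 0.76 ± 0.18 (adjusted p = 0.00338). Ndufaf2, a paralog of Ndufa12 that occupies its place during assembly, had 17.8, 16.7 and 16.5 CPM, then 28.4, 29.7 and 35.2, then 38.7, 41.4 and 33.2. Its rise by day 8 was 1.15 ± 0.12, while Ndufa12 rose by 2.54 ± 0.15; the difference between the paralogs was not tested.

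**Figure D4:**
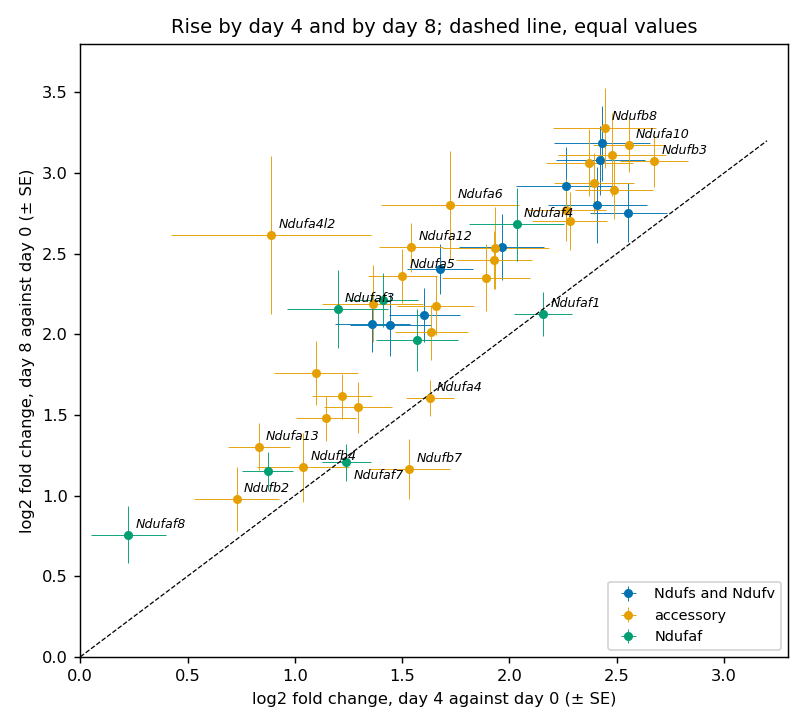
Fitted log2 fold change of the Nduf genes plotted against day 0, at day 4 on the horizontal axis and at day 8 on the vertical axis, coloured by class, with SE as bars; both axes share the day 0 libraries. Most points lie above the dashed line of equal values; Ndufa4, Ndufaf1 and Ndufaf7 lie on it and Ndufb7 below it.

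From day 4 to day 8 the rise was smaller and passed the test for a part of the family. Of 47 members, 25 were higher at day 8, where 14.7% of all tested genes were higher and 17.1% lower, and the median log2 difference was 0.53 (a fold of 1.45) against -0.02 over all genes. The 25 comprised 8 of 11 Ndufs and Ndufv genes, 13 of 28 accessory genes and 4 of 8 Ndufaf genes. Without the libraries that stood apart these were 8 of 11, 24 of 28 (and 1 lower) and 4 of 8, and without day 8 replicate 1 they were 1, 2 and 1. With Ndufs4, Ndufs5, Ndufs6 and Ndufv3 counted as accessory, 4 of 7 conserved subunits and 17 of 32 accessory genes were higher, over all libraries. The median late log2 differences of these 2 sets were 0.52 and 0.54, so the larger share by symbol does not hold by structure. The mean level of 43 members was higher at day 8 than at day 4. The other 4 members had fitted values below 0, and edgeR, DESeq2 and limma-voom called 0 of them, also at an unadjusted p under 0.05. This count moved with the libraries used. It was 36 higher and 1 lower (Ndufb7) without the libraries that stood apart, where 16.6% of all genes were higher; 4 without day 8 replicate 1, where 8.26% were; 5 without day 8 replicate 2, where 8.78% were; and 12 with only the day 4 and day 8 libraries in the fit, where 11.6% were. Without day 0 replicate 3 it was 16, where 12.6% of all genes were higher. With library totals in place of TMM it was 37, and 22.2% of all genes were then higher and 11.5% lower.

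The members with the smallest adjusted p between day 4 and day 8 came from several parts of the complex. Ndufa12, an N-module subunit added late in assembly, measured 7.77, 9.90 and 8.61 CPM at day 0, 26.3, 22.6 and 27.6 at day 4, and 56.5, 54.3 and 41.8 at day 8, a late log2 rise of 1.00 ± 0.14 (adjusted p = 0.00127, edgeR). Ndufa5, of the Q module, measured 46.4, 36.1 and 41.1, then 131, 96.3 and 122, then 231, 230 and 175 CPM, with 0.86 ± 0.16 (adjusted p = 0.0039). The groups of both genes did not overlap. Over all 14714 tested genes, every day 8 library lay above every day 4 library for 3272. Ndufaf5 followed with 0.80 ± 0.16, Ndufs5 with 0.73 ± 0.15, Ndufaf3 with 0.96 ± 0.23, Ndufs4 with 0.70 ± 0.17, Ndufa10 with 0.62 ± 0.16 and Ndufb8 with 0.84 ± 0.23, at adjusted p from 0.0052 to 0.0211. Ndufa12, Ndufa5, Ndufaf5 and Ndufs5 passed under all 18 alternative settings. All 4 hold the NRF1 letters in their promoter windows, in Ndufaf5 18 bases past the start site; this was noticed after their values were seen. Of the 13 members with those letters 9 were higher at day 8 than at day 4 (69.2%), and of the 28 without, 15 were (53.6%); over all tested genes with a window the shares were 16.4% with the letters and 15.1% without.

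By place in the complex, 8 of 10 N-module members rose between day 4 and day 8, 3 of 5 in the Q module, 6 of 10 in the proximal membrane arm and 2 of 11 in the distal membrane arm, with median log2 differences of 0.66, 0.52, 0.53 and 0.40. The split between the arms moved with the libraries and the scaling used. Without both libraries that stood apart the counts were 8 of 10, 3 of 5, 10 of 10 and 9 of 11, with medians of 0.58, 0.46, 0.50 and 0.44. With library totals in place of TMM they were 9, 3, 9 and 8, and without day 4 replicate 2 alone they were 8, 2, 4 and 1. Without day 8 replicate 1, and likewise without day 8 replicate 2, 1 member rose in each of the N module, the Q module and the proximal arm. Ndufa4, Ndufaf1 and Ndufaf7 passed neither with all libraries nor without both that stood apart. Their late differences lay between -0.03 ± 0.11 and -0.02 ± 0.11 with all libraries and between -0.17 and 0.03 without both that stood apart. Ndufaf7 is a methyltransferase that acts on a subunit of the complex, and its levels were 28.1, 27.95 and 25.7 CPM at day 0, 65.4, 54.4 and 73.2 at day 4 and 61.9, 61.6 and 64.9 at day 8. These 3 were chosen after their values were seen.

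**Figure D5:**
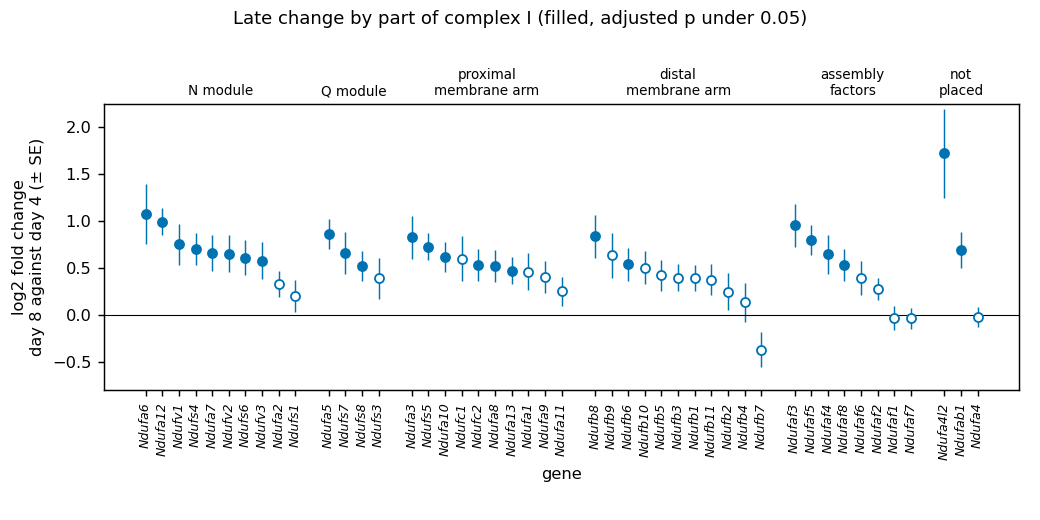
Fitted log2 fold change from day 4 to day 8 of the Nduf genes plotted with its SE, grouped by place in complex I; filled points have an adjusted p under 0.05 (edgeR, all genes). Filled points make up 8 of 10 in the N module and 2 of 11 in the distal membrane arm, and the open points scatter between -0.37 and 0.63.

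Ndufaf1 is part of the mitochondrial complex I assembly complex, which builds the proximal membrane arm together with Acad9, Ecsit, Tmem126b, Timmdc1 and Tmem186. Of 10 listed assembly factors without an Nduf symbol, 10 rose by day 4 (median 1.47) and 10 by day 8 (median 1.51), where 29.8% and 34.2% of all tested genes were higher. Their day 8 values ran from 0.77 ± 0.09 for Dmac1 to 2.85 ± 0.20 for Foxred1. From day 4 to day 8, 1 rose and 2 fell, shares of 10 genes that lie near the 14.7% and 17.1% of all tested genes. The 2 that fell were Acad9, from 147, 130.3 and 172 CPM to 105, 100.2 and 107 (-0.52 ± 0.12, adjusted p = 0.00998, edgeR), and Tmem186, from 31.2, 25.6 and 35.8 to 20.4, 22.3 and 20.1 (-0.56 ± 0.13, adjusted p = 0.0096). Their day 4 and day 8 groups did not overlap, and every day 8 library lay below every day 4 library for 3383 of all 14714 tested genes. Ndufaf1 itself, with 17.3, 18.4 and 18.7 CPM at day 0, 79.8, 68.7 and 94.1 at day 4 and 85.1, 82.8 and 69.5 at day 8, had -0.03 ± 0.13, and Ecsit, Tmem126b and Timmdc1 had 0.38, 0.15 and 0.24, none of which passed. The gene that rose was Nubpl, which delivers iron-sulfur clusters to complex I, from 9.80, 4.32 and 7.76 CPM to 19.1, 18.6 and 17.2 (1.33 ± 0.28, adjusted p = 0.0070). Acad9, Tmem186, Nubpl, Ecsit, Tmem126b and Timmdc1 were chosen after their values were seen.

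The other 7 complex I genes lie in mitochondrial DNA and are translated by mitochondrial ribosomes, which cycloheximide does not block. Of these, 6 were higher at day 4 (median log2 fold change 0.89) and 6 at day 8 (median 1.28), where 29.8% and 34.2% of all tested genes were higher. These medians lay below the 1.66 and 2.36 of the nuclear members, and the difference was not tested. mt-Nd4l did not pass at day 4 (0.46, adjusted p = 0.272, edgeR), and mt-Nd3 did not pass at day 8 (0.50, adjusted p = 0.364). mt-Nd3 and mt-Nd4l had under 2 CPM on average in each group. mt-Nd2 had the largest day 8 value, 1.93 ± 0.15, with 53.8, 38.8 and 45.5 CPM at day 0 and 188, 172 and 165 at day 8. mt-Nd1 rose by 1.51 ± 0.13, mt-Nd4 by 0.88, mt-Nd5 by 1.06 and mt-Nd6 by 1.74 ± 0.22. Between day 4 and day 8 the 2 of 7 that rose were mt-Nd1 (0.51 ± 0.13) and mt-Nd6 (0.86 ± 0.21), where 14.7% of all tested genes were higher. With so few genes, that count is not read as a result about them.

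Nuclear subunits of the other respiratory complexes rose in the same comparisons, where 34.2% of all tested genes were higher at day 8 than at day 0. By day 8, 4 of 4 complex II genes were higher (median 2.88, Sdhc 2.16 to Sdhd 3.02), 9 of 9 of complex III (3.13, Uqcrq 2.28 to Uqcrfs1 3.76), 15 of 15 of complex IV (2.74, Cox7a2l 1.49 to Cox8b 8.63) and 14 of 15 of ATP synthase (2.14, Atp5g2 0.23 to Atp5b 2.88). From day 4 to day 8, 0 of 4, 1 of 9, 10 of 15 and 1 of 15 were higher, where 14.7% of all tested genes were; the complexes were not tested against each other. For the 4 of complex II edgeR gave adjusted p between 0.0541 and 0.353, 2 were higher at an unadjusted p under 0.05, and DESeq2 called 1 and limma-voom 0.

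Of 10 listed regulators of respiratory genes, 5 were higher and 2 lower at day 4, and 5 were higher and 1 lower at day 8, beside 29.8% and 28.4% of all tested genes at day 4 and 34.2% and 33.5% at day 8. Ppargc1a, a coactivator of mitochondrial genes, measured 0.335, 0.402 and 0.331 CPM at day 0, 25.1, 12.8 and 25.2 at day 4, and 42.7, 34.96 and 30.1 at day 8, a log2 fold change of 6.64 ± 0.34 by day 8 and the largest of the list. Esrra, an estrogen-related receptor, measured 14.2, 10.2 and 12.1, then 70.7, 37.9 and 63.0, then 79.3, 68.4 and 45.1 CPM, with 2.40 ± 0.27. Day 4 replicate 2 and day 8 replicate 3 were the lowest of their groups for both regulators, as they were for most Nduf genes. Pprc1 had the smallest value, -1.23 ± 0.21 (adjusted p = 0.000542, edgeR). Nrf1, named here because its motif was counted, had 16.1, 12.9 and 15.6 CPM at day 0 and 15.8, 16.0 and 12.5 at day 8, and its difference of -0.01 ± 0.14 did not pass (adjusted p = 0.941). The motifs of YY1 and GABP were counted too. By day 8 Yy1, Gabpa and Gabpb1 had -0.18, 0.20 and -0.11, and none passed (adjusted p = 0.0984, 0.15 and 0.399, edgeR). At day 4 Gabpa was higher (0.47, adjusted p = 0.00523) and Gabpb1 lower (-0.47, adjusted p = 0.0050). From day 4 to day 8 Gabpb1 rose (0.36, adjusted p = 0.0349).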

How the data were processed

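The deposited table holds raw counts of ribosome footprints for each Ensembl gene and library. The authors used, per the submitters' processing notes, cutadapt, HISAT2, featureCounts and GRCm39. Their versions, strand setting and treatment of multi-mapping reads were not given in the sources used here. Matched RNA levels were not used here, so a footprint level reflects both mRNA abundance and ribosome load.

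Groups came from the labels. Genes passed filterByExpr of edgeR 4.0.16 (minimum count 10), were normalised by TMM, and group differences were tested by quasi-likelihood (R 4.3.3). The model held the group alone, and 9 libraries shared 1 estimate of spread. P-values were adjusted (Benjamini-Hochberg) over 14714 genes and called under 0.05. Steps were checked on simulated counts.

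Of 47 tested members, 14 overlap another gene in RefSeq (GRCm38.p6), and members with pseudogenes named after them (Ndufs5, Ndufa12, Ndufab1) may lose or gain reads. Intervals of counting error are not given; errors are SD or SE over libraries. A member counted in the totals is not reported by itself here or plotted. Members, gene lists and motifs were chosen with earlier results of these data known. Values in every library are given for the 2 largest and 2 smallest day 8 changes of each class, the 8 smallest late p-values, and for Ndufa4 and Ndufa4l2; other members named are said to be chosen after their values were seen. Alternatives were other scalings, no filter, DESeq2 1.42.0, limma-voom (limma 3.58.1), a replicate block, fits of 2 groups, and leaving out libraries. The fit that omits both day 4 replicate 2 and day 8 replicate 3 was added after seeing the data. Those libraries were picked by their Nduf values, so its counts and p-values are descriptive.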

Additional observations from a re-analysis of the deposited data

Results flagged for a closer look

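Pseudogenes were left out of the family by name, yet Ndufab1-ps and Ndufs5-ps held footprints that rose beside it. Ndufab1-ps had 101 counts over the 3 day 0 libraries, 469 over the day 4 libraries and 703 over the day 8 libraries, a log2 fold change of 2.69 ± 0.23 by day 8 (adjusted p = 7.1e-06, edgeR). Ndufs5-ps had 88, 282 and 413 counts, with 2.13 ± 0.29 (adjusted p = 0.000113). The genes they are named after, Ndufab1 and Ndufs5, rose by 3.06 and 2.41. Whether these reads belong to the pseudogenes was not tested. Ndufa12-ps had 0, 1 and 2 counts.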

How the results depend on the processing

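Of the 47 members, 45 at day 4 and 47 at day 8 were called against day 0 with the replicate number as a block, and 18 between day 4 and day 8, of which 16 were among the 25. The labels do not say whether the numbers pair the libraries, and this was not settled. Same-numbered deviations correlated at 0.0595, -0.0494 and 0.0524 (days 4 and 0), 0.121, 0.071 and 0.0855 (days 8 and 0) and 0.188, -0.2 and -0.137 (days 8 and 4). Differently numbered ones ran from -0.109 to 0.049, from -0.103 to -9.04e-05 and from -0.296 to 0.314 in the same comparisons. The late count of 25 was 12 with only the 2 groups compared and ran from 4 to 28 with a library left out; the count called lower was 1 without day 4 replicate 2 and day 8 replicate 3. The day 8 median of the Ndufs and Ndufv genes (2.54) was 2.44 with upper quartile scaling, 2.65 without those libraries, 2.80 over the 7 conserved subunits and 2.5 to 2.66 with a library left out. The day 8 median of the Ndufaf genes (2.05) was 1.94 with upper quartile scaling. Upper quartile scaling moved the median of all genes by -0.127 at day 4 and -0.107 at day 8, and library totals moved it by -0.154 at day 4 and by 0.142 in the late comparison. Over the 18 members that the rule for named genes picks and 18 alternatives, 320 values kept their side of the threshold at day 4 and 4 gained it; 324 kept it at day 8; in the late comparison 284 kept it, 6 gained it and 34 lost it. None changed sign once called.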
